A study of Mus musculus with 12 samples.

Results

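The 10 genes described here mark the lining of the lung and its airways: Scgb1a1, Scgb3a1, Scgb3a2, Bpifa1, Bpifb1 and Reg3g of secretory cells, Foxj1 of ciliated cells, and Sftpc, Sftpb and Sftpd of surfactant-producing cells. They were taken by gene symbol from a table of 78317 genes counted in heart ventricle, and all 10 were found. They were chosen by their read counts in these same libraries, some of which had already been seen to hold airway transcripts, so their levels are given as a description. The design sets offspring of males with an early heart injury against offspring of males without one. RNA was sequenced in bulk from the ventricles of 12 C57BL/6J mice that had themselves not been injured. Of these, 6 were offspring of males given a freezing injury of the heart (cryoinjury) on postnatal day 1, and 6 were offspring of uninjured males. The labels count 3 male and 3 female offspring of injured sires and 4 male and 2 female offspring of uninjured sires, do not say which library came from which sex, and name no mother, litter or dissection batch. Collection is labelled 3 wpp, in animals also called adult. Injured-sire replicate 16, which the labels call a principal component outlier, was left out of the group comparison and is shown with its own values.

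The conducting airways are lined by secretory (club and goblet) cells, ciliated cells and basal cells, and the alveoli by flat type 1 cells and surfactant-making type 2 cells. Club cells secrete small proteins of the secretoglobin family, and Scgb1a1 is their classic marker. Heart muscle is not a known source of these proteins, while lung, trachea, thymus and fat all lie beside the heart in the chest. In bulk tissue, fewer cells of a type and less RNA per cell cannot be told apart.

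Scgb1a1 turned out to be the most abundant of the 10, and its coding sequence is shown because it had more counts than any other member in each library with airway transcripts. The sequence is from GENCODE release M21 on GRCm38, chromosome 19, 9083764 to 9087901, minus strand, 291 coding bases of a transcript of 476 bases in 3 exons; the capitals mark the start and stop codons. None of the 427 different stretches of 50 bases in that transcript occurs in a transcript of another gene.
Scgb1a1: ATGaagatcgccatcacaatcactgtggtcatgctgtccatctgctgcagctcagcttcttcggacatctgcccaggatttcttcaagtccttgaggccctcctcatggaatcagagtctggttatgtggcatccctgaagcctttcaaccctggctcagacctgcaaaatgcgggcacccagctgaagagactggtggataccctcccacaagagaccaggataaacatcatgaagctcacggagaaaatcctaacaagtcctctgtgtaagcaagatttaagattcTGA

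The same check found no 50-base stretch shared with another gene for 9 of the 10 members; Sftpb had 3 of 2044 in common with others. Exons of the members shared no base with another gene on the same strand in the counted annotation, and Sftpb shared 159 bases with a gene on the opposite strand, which strand-specific counting keeps apart.

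Promoters of 5 of the 10 members were taken from RefSeq (GRCm38.p6). They run from 250 bases before to 50 after the start of the gene. None was available for Scgb1a1, Sftpc, Sftpd and Foxj1 in the source used. Scgb3a2 was left out of the search, so the matches counted below do not cover its promoter. Both strands were searched for CTCAAG, the core that the lung and thyroid factor NKX2-1 is known to bind, for the forkhead motif TGTTTAC, for the C/EBP motif TTGCNNAA and for the TATA box TATAAA. Capitals mark the matches. CTCAAG or its complement lay in the promoters of 4 members, Scgb3a1, Bpifa1, Reg3g and Sftpb, and in 15.9% of all 32851 promoters of this length. A TATA box was found in Bpifa1 and Reg3g, starting 29 and 27 bases before the start site (13.6% of all promoters), with a further match in Reg3g on the other strand, and the forkhead (3.65%) and C/EBP (10.8%) letters were in none of the 5. Neither Bpifb1 window held any of the 4, and no promoter is printed for it. The matches are letters in a window and were not tested for binding. The promoters searched are not those of the members that moved together across libraries. Sftpb was searched but did not follow Scgb1a1 (Pearson's r of log2 CPM 0.347 over 12 and -0.192 over 7 libraries). Scgb3a2, which followed it closely (0.995 over 12), was not searched.
Scgb3a1 (chr11:49663345-49663644, plus strand): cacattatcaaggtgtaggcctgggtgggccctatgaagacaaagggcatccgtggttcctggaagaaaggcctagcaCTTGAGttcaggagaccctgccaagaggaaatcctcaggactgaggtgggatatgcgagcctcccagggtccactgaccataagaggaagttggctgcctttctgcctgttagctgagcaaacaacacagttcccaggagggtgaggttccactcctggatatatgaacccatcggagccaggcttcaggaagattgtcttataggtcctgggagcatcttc
Bpifa1 (chr2:154142630-154142929, plus strand): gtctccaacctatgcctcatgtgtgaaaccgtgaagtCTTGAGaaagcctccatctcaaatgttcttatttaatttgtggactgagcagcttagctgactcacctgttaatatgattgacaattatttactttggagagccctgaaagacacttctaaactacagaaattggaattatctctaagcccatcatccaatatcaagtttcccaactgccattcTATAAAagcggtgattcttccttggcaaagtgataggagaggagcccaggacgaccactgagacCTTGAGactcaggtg
Reg3g (chr6:78468825-78469124, minus strand): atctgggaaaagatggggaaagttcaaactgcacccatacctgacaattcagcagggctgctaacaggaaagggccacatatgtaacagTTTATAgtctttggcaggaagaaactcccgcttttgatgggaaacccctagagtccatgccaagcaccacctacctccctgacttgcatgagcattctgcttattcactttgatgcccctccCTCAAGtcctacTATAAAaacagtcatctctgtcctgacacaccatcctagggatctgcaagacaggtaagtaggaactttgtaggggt
Sftpb (chr6:72304360-72304659, plus strand): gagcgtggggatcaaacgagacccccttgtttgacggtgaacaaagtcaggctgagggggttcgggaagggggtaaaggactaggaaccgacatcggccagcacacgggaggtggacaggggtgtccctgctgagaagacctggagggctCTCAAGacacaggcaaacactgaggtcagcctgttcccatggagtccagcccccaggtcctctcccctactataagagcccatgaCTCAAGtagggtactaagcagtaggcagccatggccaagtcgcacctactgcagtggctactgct

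On GRCm39, the build of the counts, Scgb1a1 lies on chromosome 19 (9061000 to 9065322), Scgb3a1 on chromosome 11 (49554437 to 49555945), Scgb3a2 on chromosome 18 (43897354 to 43900464) and Reg3g on chromosome 6 (78443252 to 78445855). Bpifa1 (153984800 to 153991139) and Bpifb1 (154032738 to 154062289) are neighbours on chromosome 2. Sftpc (70758389 to 70761521) and Sftpd (40894171 to 40907106) are on chromosome 14, Sftpb on chromosome 6 (72281594 to 72291354) and Foxj1 on chromosome 11 (116221530 to 116226225).

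The libraries held 30537315 to 42090257 counts each, and cardiomyocyte transcripts were abundant in all of them, as labelled: 10 markers (Myh6, Tnnt2, Actc1 and others) summed to 71273 to 82613 CPM in the 5 injured-sire libraries compared, 79025 in replicate 16 and 67516 to 77661 in uninjured-sire libraries. CPM are counts per 1000000 of the library total, scaled with TMM factors. Libraries split into a set with airway transcripts and a set nearly without: Scgb1a1 had 627 counts or more in 7 libraries, 5 of the 6 injured-sire and 2 of the 6 uninjured-sire ones, and 57 or fewer in the other 5.

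Scgb1a1 had 2274, 3313, 6960, 10427, 8 and 627 counts in injured-sire replicates 12 to 17, and 5574, 12, 8, 5006, 57 and 9 counts in uninjured-sire replicates 18 to 23. The injured-sire libraries other than replicate 16 were all above 4 of the uninjured-sire libraries, while uninjured-sire replicates 18 and 21 lay within their range, so the groups overlapped. In CPM the medians were 99.7 in 5 injured-sire and 0.955 in 6 uninjured-sire libraries, and each median is the level of the side of the split on which most libraries of that group lay. Per kilobase of exon, Scgb1a1 in injured-sire replicate 15 reached 10.4% of the level of Myh6, the main cardiac myosin heavy chain gene, and in uninjured-sire replicate 18 it reached 6.28%. It was at 0.00723% in uninjured-sire replicate 20. All 10 members together took at most 0.0599% of a library's counts (injured-sire replicate 15), and 0.00368% in injured-sire replicate 17, the lowest of the 7 libraries with airway signal.

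The other secretoglobins split the libraries in the same way. Scgb3a1, a secretoglobin of the larger airways, had 460, 852, 1547, 3046, 21 and 156 counts in injured-sire replicates 12 to 17, against 1572, 13, 21, 1222, 48 and 9 in uninjured-sire replicates 18 to 23. Scgb3a2, a secretoglobin of club cells, had 673, 1019, 1823, 3678, 3 and 207 counts in injured-sire and 1871, 5, 0, 1837, 37 and 3 counts in uninjured-sire replicates of the same order. The groups overlapped for these and for all other members. Injured-sire replicate 15 was highest for both, and replicates 18 and 21 again stood within the injured-sire range.

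Bpifa1 and Bpifb1, secreted proteins of the nasal and large-airway lining that bind lipids and bacterial products, followed the same libraries. Bpifa1 had 498, 935, 2102, 3631, 0 and 92 counts in injured-sire replicates 12 to 17 and 1774, 0, 0, 2240, 34 and 4 counts in uninjured-sire replicates 18 to 23. Bpifb1 had 453, 663, 1118, 1602, 6 and 92 counts in injured-sire and 810, 5, 6, 894, 4 and 2 counts in uninjured-sire replicates. Reg3g, an antibacterial lectin known from gut and airway epithelium, had 309, 395, 836, 1498, 2 and 68 counts in injured-sire and 1002, 8, 2, 526, 7 and 0 counts in uninjured-sire replicates. In CPM, uninjured-sire replicate 18 exceeded replicate 21 for Reg3g (28.5 and 12.5) and Bpifb1 (23.1 and 21.2), but not for Bpifa1 (50.5 and 53.2). The intestinal genes Reg3a, Reg3b, Fabp2, Cdx1 and Sis had no count in any of the 12 libraries.

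**Figure D1:**
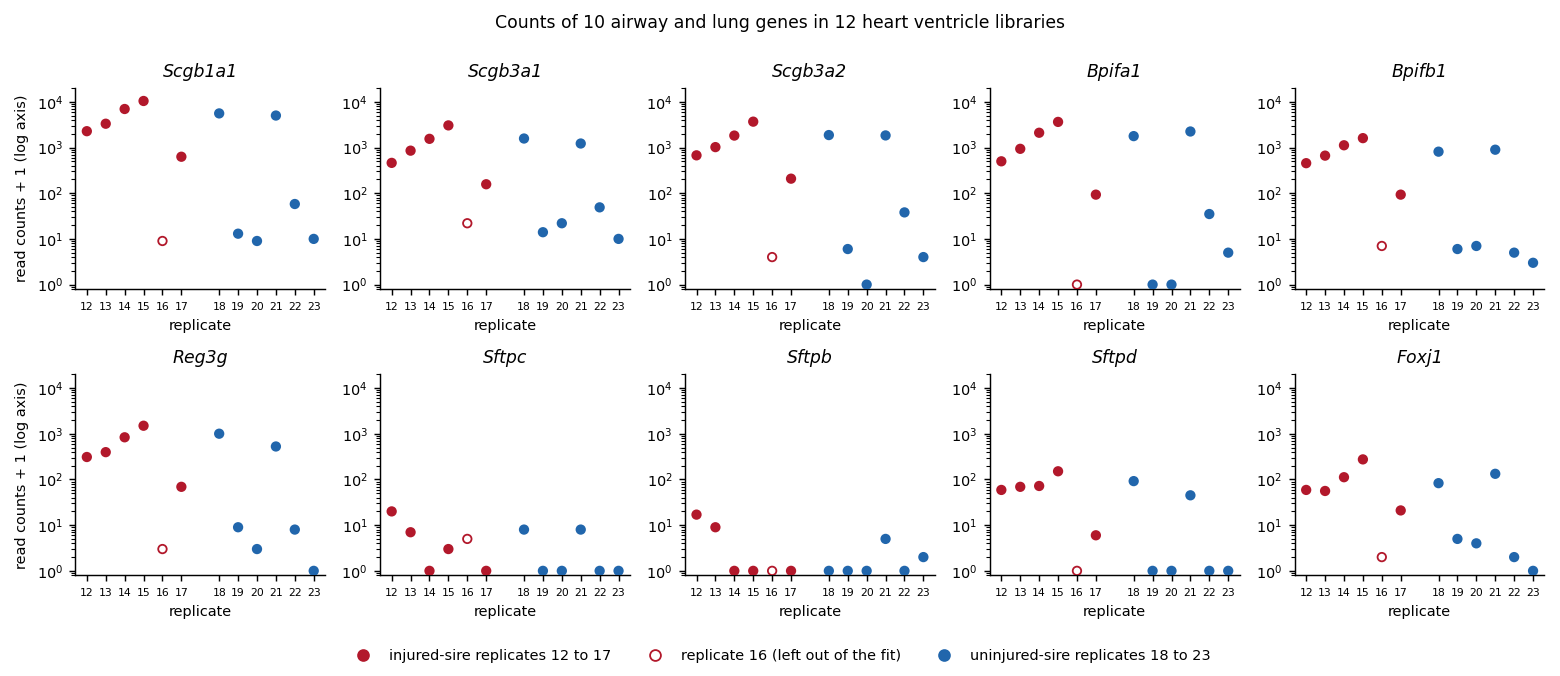
Read counts plus 1 (log axis) of the 10 genes in each library, with injured-sire replicates 12 to 17 left of uninjured-sire replicates 18 to 23 and replicate 16 drawn open. The secretory genes and Foxj1 were high in the same 7 libraries (12, 13, 14, 15, 17, 18 and 21), with Scgb1a1 at 627 to 10427 counts there and 8 to 57 elsewhere. Sftpd followed them except in replicate 17, where it had 5 counts, while Sftpc and Sftpb had at most 19 and 16 counts.

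Foxj1, the transcription factor that switches on motile cilia, was present at a lower level in the same libraries, with 58, 55, 111, 274, 1 and 20 counts in injured-sire replicates 12 to 17 and 82, 4, 3, 132, 1 and 0 counts in uninjured-sire replicates 18 to 23. The ciliary protein gene Ccdc153 had 41, 48, 123, 253, 0 and 20 counts in injured-sire and 85, 0, 1, 96, 0 and 0 in uninjured-sire replicates. It was named as 1 of the 20 genes most like Scgb1a1, so its rise in the same libraries follows from that choice. Over the 12 libraries, the other ciliated list genes followed Scgb1a1 less closely, as given below.

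The surfactant genes divided. Sftpc, surfactant protein C and the defining marker of alveolar type 2 cells, had 19, 6, 0, 2, 4 and 0 counts in injured-sire replicates 12 to 17 and 7, 0, 0, 7, 0 and 0 counts in uninjured-sire replicates 18 to 23. Sftpb, surfactant protein B, had 16, 8, 0, 0, 0 and 0 counts in injured-sire and 0, 0, 0, 4, 0 and 1 counts in uninjured-sire replicates. Injured-sire replicate 12 was highest for both, although its Scgb1a1 count was only 21.8% of that of replicate 15. Sftpd, a surfactant collectin that airway cells are also known to make, mostly behaved like the secretory genes, with 58, 68, 71, 150, 0 and 5 counts in injured-sire and 91, 0, 0, 44, 0 and 0 counts in uninjured-sire replicates. Unlike them, it was low in injured-sire replicate 17, at 5 counts.

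A count of 0 allows up to 3 counts, which was 0.0713 to 0.0982 CPM of unscaled library totals. Sftpc and Sftpb at 0 were therefore not detectable at this depth rather than shown to be absent. Such limits, like the intervals below, cover counting error only, since molecular identifiers are not given in the sources used here.

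Levels were ordered per kilobase of exon, as CPM per kilobase. Over all 12 libraries the order of means was Scgb1a1 (158), Scgb3a1 (32.8), Scgb3a2 (27.6), Bpifa1 (15.9), Reg3g (4.83), Bpifb1 (3.43), Foxj1 (0.608), Sftpd (0.445), Sftpc (0.0967) and Sftpb (0.0324). In each of the 7 libraries with at least 100 Scgb1a1 counts, Scgb1a1 exceeded Scgb3a1, Scgb3a2 exceeded Bpifa1, Bpifa1 exceeded Reg3g, Reg3g exceeded Bpifb1, Bpifb1 exceeded Foxj1 and Sftpd exceeded Sftpc. Scgb3a1 stood above Scgb3a2 in 6 of these 7 and Foxj1 above Sftpd in 4 of 7, so those neighbours did not keep 1 order. Sftpc was above Sftpb in 5 of the 7, and both were at 0 in injured-sire replicates 14 and 17.

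Scgb3a1, Scgb3a2 and Bpifb1 varied little relative to Scgb1a1 in the libraries with airway transcripts, and the other members varied more. For every 100 counts of Scgb1a1, the 7 libraries had 20.2 to 29.2 counts of Scgb3a1, 26.2 to 36.7 of Scgb3a2, 14.5 to 20.0 of Bpifb1, 10.5 to 18 of Reg3g and 1.47 to 3.19 of Foxj1, although Scgb1a1 itself ranged from 627 to 10427 counts. Between its lowest and highest library Scgb3a2 spanned 1.40-fold, Bpifb1 1.38-fold, Reg3g 1.71-fold and Foxj1 2.17-fold. The ratios were not equal within counting error: Scgb3a1 was at 29.2 in injured-sire replicate 15 (95% exact Clopper-Pearson interval 28.0 to 30.4) and at 20.2 in injured-sire replicate 12 (18.3 to 22.4).

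Bpifa1 varied most among the secretory members, 3.05-fold. It was at 14.7 per 100 Scgb1a1 counts in injured-sire replicate 17 (11.7 to 18.3) and at 44.7 in uninjured-sire replicate 21 (42.6 to 47.0), with the other 5 libraries between 21.9 and 34.8. Sftpd ranged from 0.797 in injured-sire replicate 17 to 2.55 in injured-sire replicate 12, a 3.20-fold span. Sftpc was at 0.836 per 100 in injured-sire replicate 12 (0.502 to 1.31) and at 0.0192 in injured-sire replicate 15 (0.00232 to 0.0693), and it had no count in injured-sire replicates 14 and 17. The intervals of replicates 12 and 15 do not meet, so Sftpc did not keep a fixed ratio to Scgb1a1.

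In the 5 libraries with little airway signal the mix looked different. Scgb3a1 had 21, 13, 21, 48 and 9 counts in injured-sire replicate 16 and uninjured-sire replicates 19, 20, 22 and 23, where Scgb1a1 had 8, 12, 8, 57 and 9. Scgb3a1 exceeded Scgb1a1 in 3 of these 5 libraries and in 0 of the other 7. In replicates 16 and 20 it reached 262 per 100 Scgb1a1 counts (112 to 685 in both), an interval far above the 20.2 to 29.2 of the 7 libraries. Uninjured-sire replicate 22 was intermediate: its Scgb1a1 count was 0.547% of that of injured-sire replicate 15, against 0.0767% to 0.115% in the other 4. It had Bpifa1 at 34 counts but Bpifb1 at 4, Reg3g at 7 and Sftpd at 0.

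Companion genes of the same cell types were taken from lists, which were drawn up with earlier results of these data known. Of the genes in this paragraph, Muc5b was named for its likeness to Scgb1a1. Of 17 other secretory airway genes, the most abundant were Cbr2, a carbonyl reductase, Cyp2f2, the club cell cytochrome P450, and Ltf, lactoferrin, which neutrophils also carry. The list summed to 39.3 to 352 CPM in the 5 injured-sire libraries, 21.2 in replicate 16 and 18.8 to 206 CPM in the 6 uninjured-sire libraries. Cyp2f2 had 914, 1800, 2708, 5019, 1 and 226 counts in injured-sire replicates 12 to 17 and 2541, 4, 7, 1691, 34 and 2 counts in uninjured-sire replicates 18 to 23. Cbr2 had at least 517 counts in every library, so it was also present where Scgb1a1 was nearly missing, at 517 to 702 counts. The goblet mucin gene Muc5b had 63 to 981 counts in the 7 libraries and at most 2 in the other 5, whereas Muc5ac, the mucin of stimulated goblet cells, never passed 18; Muc5ac is outside the naming rule and was picked after its values were seen.

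Transcripts of basal and general epithelial markers were also counted. Krt15 and Krt5, keratins of basal cells, had 99, 77, 303, 281, 0 and 16 counts and 28, 28, 104, 92, 0 and 0 counts in injured-sire replicates 12 to 17, against 144, 0, 1, 187, 3 and 0 and 24, 0, 0, 44, 0 and 0 counts in uninjured-sire replicates 18 to 23. Trp63, the basal cell transcription factor gene, had 15 to 84 counts over all 12 libraries, with 35 in replicate 16 and 30 in replicate 19, which lack Krt5. Krt6a, a keratin of stratified epithelium, had no count in any library. The list of 16 general epithelial genes, led by Krt19, Grhl2 and Krt18, summed to 13.5 to 54.8 CPM in the 5 injured-sire libraries, 9.86 in replicate 16 and 7.18 to 40.9 CPM in uninjured-sire libraries.

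Most alveolar markers did not form such a pattern. Of the 12 type 2 companions, Abca3, a lipid transporter of lamellar bodies that other tissues also express, had 882 to 1367 counts in all libraries, the protease gene Napsa had at most 72, Lamp3 had 2 counts in the 12 libraries together and Cxcl15 had counts in 2 libraries only. Among 11 type 1 markers the most abundant, Hopx, Clic5 and Emp2, are also expressed in the heart, and the list summed to 492 to 543 CPM in the 5 injured-sire libraries, 571 in replicate 16 and 507 to 579 CPM in uninjured-sire libraries. Ager, the receptor that marks type 1 cells, had 25 to 91 counts everywhere, with 67 in replicate 16. Muc1, a membrane mucin of many epithelia, had 80, 118, 167, 130, 12 and 14 counts in injured-sire replicates 12 to 17 and 109, 1, 18, 99, 12 and 18 counts in uninjured-sire replicates 18 to 23, and so was high in 6 of the 7 libraries with Scgb1a1 (r with Scgb1a1, as log2 CPM, 0.866 over 12 and 0.911 over 7 libraries). Further exceptions within these lists were Sftpa1, a surfactant collectin, with 17 to 83 counts in 6 of the 7 libraries and 0 in the other 6, and Aqp5, a water channel of type 1 cells and airway glands, with 30 to 89 counts in those 6 libraries and at most 3 in the rest. Cldn18, a tight junction gene of alveolar cells, had 16 counts in injured-sire replicate 12 and none elsewhere; that library also had the most Sftpc and Sftpb. Lamp3, Cxcl15, Ager, Sftpa1, Aqp5 and Cldn18 were named after their values were seen.

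**Figure D2:**
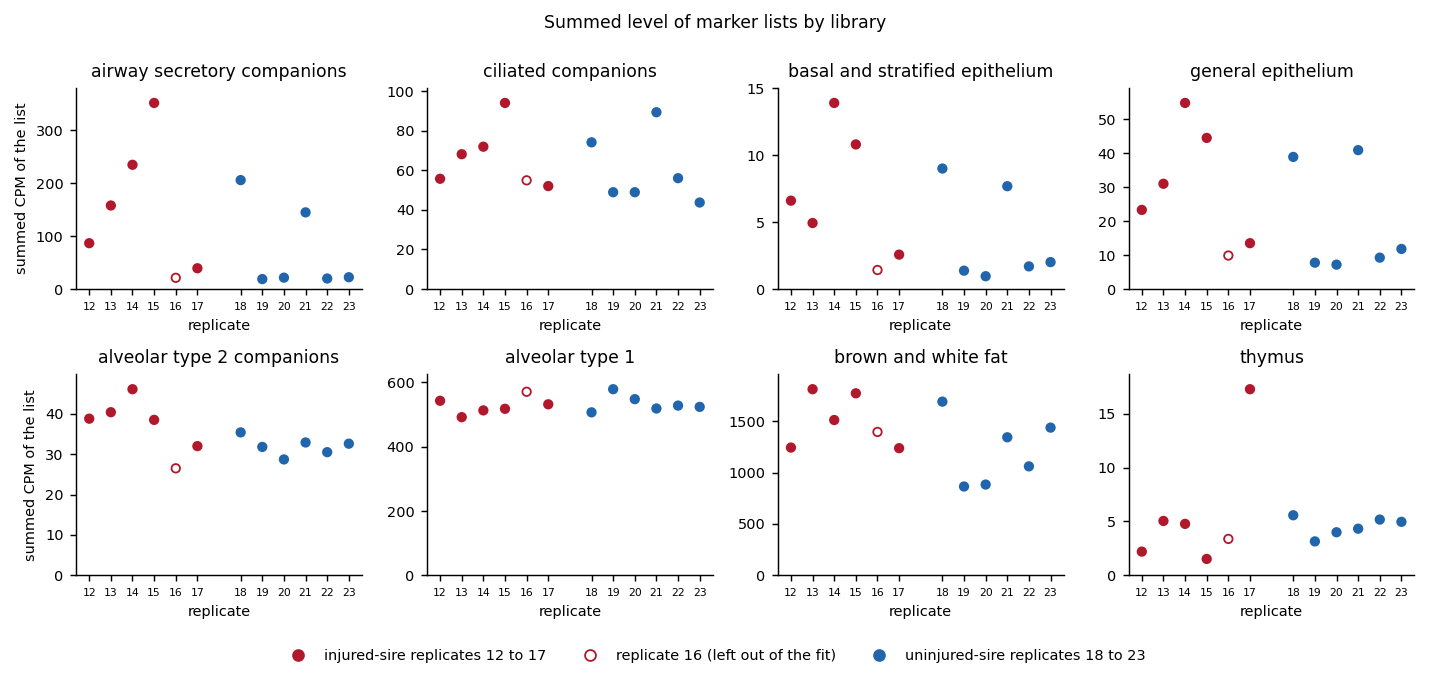
Summed CPM of 8 fixed marker lists in each library, injured-sire replicates left of uninjured-sire ones and replicate 16 drawn open. The secretory list spans 18.8 to 352 CPM and the general epithelial list 7.18 to 54.8 CPM, the type 1 list only 492 to 579 CPM, and the thymus list stands out in injured-sire replicate 17 at 17.3 CPM.

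The gene whose pattern was most like that of Scgb1a1 was Scgb3a2. Likeness was measured as Pearson's r of log2 CPM (prior count 2) over the 12 libraries, among 13714 named genes that passed the filter on low counts. The libraries fall into 2 sets and share the same tissue and depth range, so r mostly restates that split and is given as a description with no p; r within the 7 libraries with signal is given beside it. Only 55 candidates (0.401%) had r above 0.9, and the median over all was -0.0208. Scgb3a2 had r = 0.995 over 12 and 0.992 over 7 libraries, and the next were Cyp2f2 (0.995 and 0.987), Wfdc2, a secreted whey-acidic-protein family member (0.994 and 0.990), Cyp2a5, a cytochrome P450 of liver and airway (0.993 and 0.965), Sec14l3, a lipid-binding protein gene (0.992 and 0.95), and Tspan1, a tetraspanin (0.992 and 0.957). Then came Muc5b (0.991), Bpifa1 (0.988), Scgb3a1 (0.988), Krt15 (0.987), Reg3g (0.986), Tff2, a trefoil factor of mucus (0.984), Adam28, a metalloprotease (0.982), Bpifb1 (0.982), Ccdc153 (0.977) and Dnah3, a dynein of the ciliary axoneme (0.977).

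The first 20 ended with Fcgbp, a mucus-binding protein gene (0.98 over 12 and 0.85 over 7 libraries), the protease gene Tmprss2 (0.974 and 0.742), Clca1, a secreted goblet cell protein (0.972 and 0.735), and Krt18 (0.970 and 0.911). These looser values within the 7 libraries show in the counts: Clca1 had 306, 613, 326, 1263 and 129 counts in injured-sire replicates 12, 13, 14, 15 and 17, so replicate 13 exceeded replicate 14, against the order of Scgb1a1. Sftpd (0.966) and Foxj1 (0.963) ranked 22 and 24. Of the secretory companions that passed the filter, 8 of 10 had r above 0.9, against 2 of 16 ciliated, 1 of 6 type 2, 1 of 9 type 1, 2 of 4 basal and 5 of 11 general epithelial genes. Within the 7 libraries r was above 0.9 for 7 of 10 secretory, 5 of 16 ciliated, 2 of 6 type 2, 1 of 9 type 1, 2 of 4 basal and 5 of 11 general epithelial genes, and for 143 of all candidates. A gene missing from the other 5 libraries could pass the filter only by being high in most of these 7. The filter therefore set part of these shares, and nothing is read from them. Of genes that failed it, Spdef (0.86), Agr2 (0.796) and Muc5ac (0.791) of the secretory list had lower r over 12 libraries. Sntn (0.912, ciliated), Cldn4 (0.913) and Elf3 (0.925, both general epithelial) were above 0.9. These were picked after their values were seen. The 3 most abundant ciliated list genes also had counts in the 5 libraries with little Scgb1a1: Tppp3, a microtubule-binding protein gene, had 1680 in injured-sire replicate 16 and 1156 to 1761 in uninjured-sire replicates 19, 20, 22 and 23, Hydin had 70 and 33 to 98, and Cdhr3 had 64 and 19 to 34 in the same libraries.

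**Figure D3:**
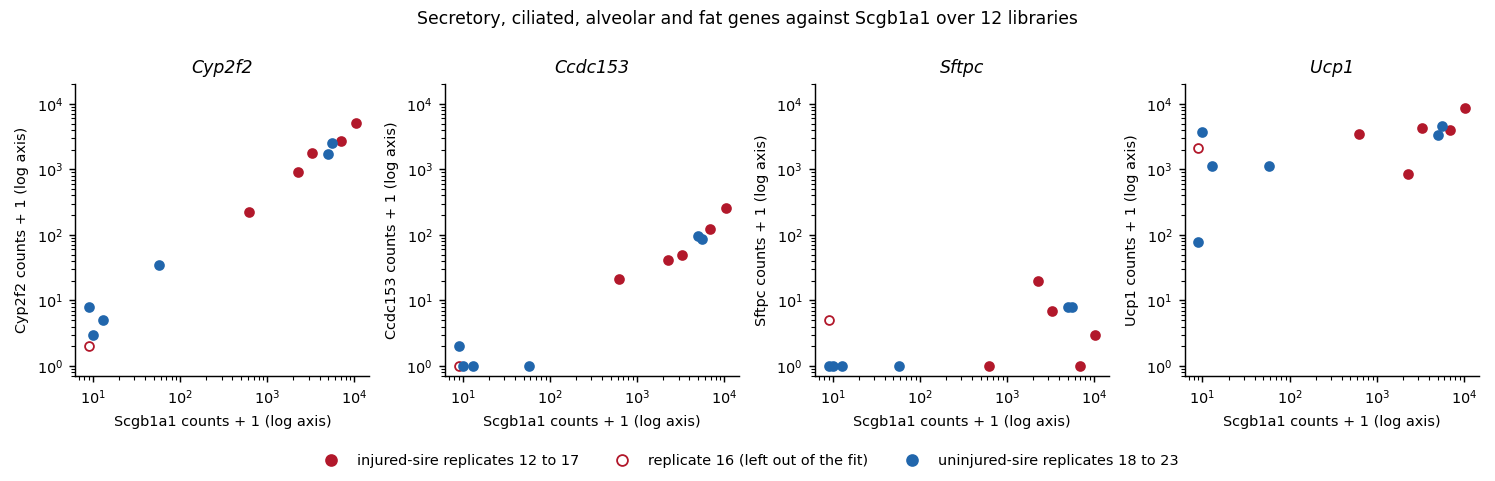
Counts plus 1 of Cyp2f2, Ccdc153, Sftpc and Ucp1 (vertical, log axis) against Scgb1a1 counts plus 1 (horizontal, log axis), 1 point per library, replicate 16 open. Cyp2f2 and Ccdc153 follow Scgb1a1 from 627 to 10427 counts, and Ccdc153 was named for its likeness to Scgb1a1. Sftpc stays at 19 counts or fewer, and Ucp1 is at 3786 counts in uninjured-sire replicate 23, where Scgb1a1 has 9.

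Other tissues that lie beside the heart were set against this pattern. Fat markers, led by Fabp4, Car3 and Ucp1, summed to 1237 to 1811 CPM in the 5 injured-sire libraries, 1395 in replicate 16 and 864 to 1690 CPM in uninjured-sire libraries, but none of the 9 measured genes had r above 0.9 with Scgb1a1 (median 0.653). Ucp1, the uncoupler of brown fat, had 844, 4340, 4061, 8510, 2098 and 3446 counts in injured-sire replicates 12 to 17 and 4640, 1121, 77, 3331, 1108 and 3786 counts in uninjured-sire replicates 18 to 23 (r = 0.56 over 12 and 0.426 over 7). Other fat genes followed Scgb1a1 more closely, such as Car3, a carbonic anhydrase gene (r = 0.699 over 12 and 0.898 over 7), and Cfd, the adipsin gene (0.772 and 0.874), the second named after its values were seen. Ucp1 was plentiful in replicates 16 and 23, which had 8 and 9 counts of Scgb1a1. Thymus transcripts stood apart in injured-sire replicate 17, with 190 counts of Rag1, a gene of developing lymphocytes, 78 of Dntt and 54 of Psmb11, although that library had the least Scgb1a1 of the 7. The cartilage collagen gene Col2a1 had 30, 197, 111, 86, 12 and 3 counts in injured-sire and 48, 2, 25, 30, 5 and 3 counts in uninjured-sire replicates (r = 0.725); its highest library, 13, was not the highest for Scgb1a1. Foxn1, the defining thymic epithelial gene, had no count in any library. Dntt, Psmb11 and Foxn1 were singled out after their values were seen.

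Lists for thyroid (2.77 to 5.21 CPM over all 12 libraries), liver (16.1 to 35.6), skeletal muscle (1834 to 2285), intestine (68.1 to 127), neutrophils (3.95 to 29.9) and alveolar macrophages (54.3 to 82.8) held no gene with r above 0.9. Single genes made up most of some sums. Means over the 12 libraries were 1979 CPM for Ckm (skeletal muscle), 96.7 for Lgals4 (intestine), 62.2 for Car4 (alveolar macrophages) and 19.9 for Ahsg (liver). Such sums can hide other genes of a list and are not levels of the tissue. Myh1, of the skeletal muscle list and picked after its values were seen, reached 400 counts in an injured-sire library and at most 9 in uninjured-sire ones. Of 8 salivary and submucosal gland genes, 7 had no count in any library. The 8 testis genes, looked at because the labels mention a testis data set from the same sequencing unit, summed to 0.241 CPM or less. The part that any other tissue, or transfer of material or reads between libraries, had in the airway transcripts was not tested.

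Between the groups, none of the 8 members that could be tested passed the test. The comparison set 5 injured-sire against 6 uninjured-sire libraries with edgeR's quasi-likelihood test over 17130 genes, of which 0.105% were called at a Benjamini-Hochberg adjusted p below 0.05 in either direction. These 8 members, which passed the filter on low counts, had 0 calls, and 0 with an unadjusted p below 0.05 (8.96% of all genes), and the DESeq2 Wald test (0.905% of genes called) and limma voom (0.123%) called 0 as well. Sftpc and Sftpb were too low to be tested. Nothing is read from these counts, because the members were chosen with the libraries' values known.

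Scgb1a1 averaged 124 ± 95.7 CPM in injured-sire libraries (SD, n = 5) and 46.7 ± 72.5 CPM in uninjured-sire libraries (SD, n = 6), a fitted log2 fold change of 1.41 ± 1.53 (SE; 95% interval -2.05 to 4.86; edgeR adjusted p = 0.857). The spread within each group was of the size of the mean. Fitted log2 fold changes of the other tested members ran from 1.11 for Bpifa1 (-2.24 to 4.46) to 1.61 for Sftpd (-1.47 to 4.69), and Foxj1 was at 1.49 (-1.22 to 4.19). The edgeR adjusted p lay between 0.796 and 0.857 for Foxj1, Sftpd, Bpifb1, Scgb3a1 and Scgb1a1 and between 0.866 and 0.893 for Scgb3a2, Reg3g and Bpifa1. For Scgb1a1, limma voom with quality weights, which changes both the model and the weights, gave 5.18 ± 1.94 (limma adjusted p = 0.431). It gave larger values for all 8 tested members, from 3.61 ± 1.59 for Scgb3a1 to 5.37 ± 3.19 for Bpifa1, so the fitted size depends on the model. Without injured-sire replicate 15, edgeR gave Scgb1a1 0.979, Scgb3a2 0.668 and Bpifa1 0.534, and without uninjured-sire replicate 18 it gave 2.34, 2.08 and 1.78 for the same genes.

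**Figure D4:**
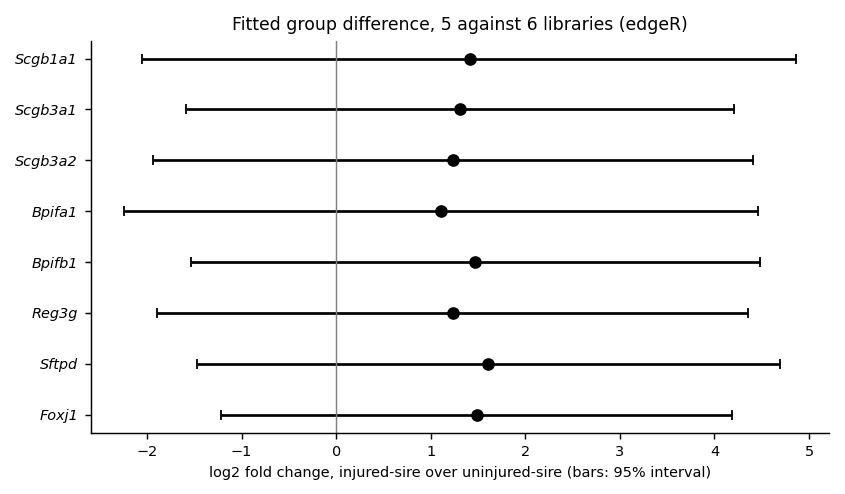
Fitted log2 fold change (horizontal) of the 8 members that could be tested, injured-sire over uninjured-sire, 5 against 6 libraries, with 95% intervals from edgeR. All 8 point estimates lie between 1.11 and 1.61 and all intervals include 0.

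The companion lists had no gene past the threshold either (edgeR). Median log2 fold changes were 1.49 for the 11 tested secretory companions, 0.927 for 18 ciliated genes, 1.02 for 12 general epithelial genes, 0.902 for 4 basal genes, 0.807 for 6 type 2 genes and 0.0658 for 9 type 1 genes, beside 0.000193 over all genes tested. Log2 fold changes were above 0 for 11 of 11 secretory, 16 of 18 ciliated and 12 of 12 general epithelial genes, against 50.1% of all genes. All 5 injured-sire libraries compared had airway signal, against 2 of the 6 uninjured-sire ones. A low airway gene could thus pass the low-count filter through the injured-sire group. The filter therefore favoured values above 0 in these lists, the share over all genes is no like baseline, and nothing is read from the signs or medians. Some lists of other tissues leaned the same way, with values above 0 for 9 of 9 fat (median 0.648), 5 of 5 neutrophil (0.605), 4 of 4 liver (0.351), 3 of 3 intestine (0.413) and 5 of 6 cartilage genes (0.402). Others leaned less or not at all, with 2 of 3 thyroid (0.192), 4 of 7 skeletal muscle (0.206), 5 of 10 cardiomyocyte (-0.00174) and 2 of 5 alveolar macrophage genes (-0.114). The genes of these lists that follow Scgb1a1 share its split of libraries, so they are not separate evidence of a group difference. Unadjusted p (edgeR) was below 0.05 for 8.96% of all genes tested. It was so for 2 of 11 secretory (Spdef and Aldh3a1), 1 of 18 ciliated (Hydin), 1 of 6 type 2 (Abca3) and 2 of 9 type 1 genes (Igfbp2 and Gprc5a). General epithelial and basal genes had 0. The edgeR adjusted p of the genes named was 0.262 or more. Apart from Hydin and Abca3, they were named after their values were seen. Other tissues had 3 of 6 cartilage, 1 of 7 skeletal muscle, 1 of 5 neutrophil and 1 of 1 salivary gland genes. Fat, liver, intestine, thyroid, thymus, alveolar macrophage and cardiomyocyte lists had 0.

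The number of genes called in the whole table was also recomputed with airway transcripts taken into account. With the log2 CPM of Scgb1a1 as a covariate, 12 genes were called, of which 5 were among the 18 called without it. With all airway, ciliated and alveolar list genes taken out before scaling, 24 were called, and all 18 were among them. The covariate takes 1 of few degrees of freedom and Scgb1a1 was unevenly spread between the groups, so airway tissue and the group cannot be told apart in those calls.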

How the data were processed

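Bulk RNA-seq of heart ventricle was analysed from raw counts of reads per Ensembl gene as deposited. Per the file headers, the authors counted with featureCounts 2.1.1, strand setting 2, against Ensembl release 114 of GRCm39. STAR 2.7.10a, Subread 2.0.3, Salmon 1.9.0 and DESeq2 1.44.0 are named in the submitters' processing notes. Sample columns with no matching label, 11 in number, were left out. Symbols came from GENCODE M21 for 51487 of 78317 gene IDs (99.3% of counts). Levels between genes use the summed exon length in the deposited table.

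The comparison used edgeR 4.0.16 in R 4.3.3 (filterByExpr at a minimum count of 10, TMM scaling, quasi-likelihood F test with robust estimation) on 5 injured-sire and 6 uninjured-sire libraries. DESeq2 1.42.0 and limma 3.58.1 were alternatives, and the steps were tested on simulated counts. Libraries may share a sire or litter, which no label gives, so the p-values cover only differences among these particular mice. Members and 19 gene lists were chosen with earlier results of these data known. The naming rule took the members, the 3 most abundant genes of each list and the 20 genes most like Scgb1a1; genes named for a count of 0 or for a low p were picked after their values were seen. Lists of distant tissues are given as sums.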

Additional observations from a re-analysis of the deposited data

Results flagged for a closer look

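Of 58 group values looked at (10 genes and 19 list sums in each of both groups), 5 had a highest or lowest library whose gap to the next one, as a share of the group's range, was above Dixon's 95% critical value, which chance alone passes in about 1 in 20 groups. Uninjured-sire replicate 21 had the highest Sftpb of its group, at 0.0951 CPM, which was 4 counts. Injured-sire replicate 17 had the highest thymus sum, at 17.3 CPM, with 190 counts of Rag1, 189 of Ccl25, 78 of Dntt and 54 of Psmb11. Ccl25 was not particular to it, with 76 to 160 counts in uninjured-sire libraries. Cd8b1, of the same list, reached 79 counts in an uninjured-sire library and at most 37 in injured-sire ones. Injured-sire replicate 15 had the highest testis sum, at 0.241 CPM, from 10 counts in all. Uninjured-sire replicate 22 had the lowest skeletal muscle sum, at 1834 CPM, and the highest neutrophil sum, at 29.9 CPM. None of the 6 secretory members, Foxj1, Sftpc or Sftpd had a single library standing apart by this measure.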

How the results depend on the processing

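No paired analysis was possible because no replicate number occurs in both groups. No member was called in any alternative run. With Scgb1a1 as a covariate, the sign of 4 members turned: Scgb3a1 (-0.31), Scgb3a2 (-0.24), Bpifa1 (-0.61) and Reg3g (-0.22), all log2 fold changes with an adjusted p of 0.638 or more, and Scgb1a1 itself could not be fitted against itself. The other 155 member values kept their direction and stayed uncalled, but those from limma voom were larger, at 3.61 to 5.37. The count of 18 called genes became 134 with the DESeq2 Wald test, 236 with no filter, 28 with 1 CPM in 5 libraries and 49 at a threshold of 0.1, and ran from 8 (without injured-sire replicate 13) to 43 (without uninjured-sire replicate 22) when 1 library was left out, with 28 and 9 without injured-sire replicates 12 and 14 and 9 without uninjured-sire replicate 23; the cause was not tested. Scaling moved the calls higher against lower from 9 of 18 to 17 of 25 with no scaling factor. The 20 genes most like Scgb1a1 shared 13 with the Spearman ranking, 19 without injured-sire replicate 16 and 9 with the ranking within 7 libraries, an alternative chosen after seeing the data. Depth limits Sftpc and Sftpb, at 19 counts or fewer.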
